A study of Mus musculus with 32 samples.

Results

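The kidneys of miR-155-/- mice were compared with those of wild type mice 72 h after 1 dose of cisplatin, a platinum drug that damages the proximal tubule. The 8 arrays of these groups, 4 per genotype, were chosen by the genotype and time in their titles from the 32 arrays of the study, which cover both genotypes in saline-injected mice (0 h) and at 24, 48 and 72 h after cisplatin. All mice were male and 12 to 16 weeks old, and the treated ones received 20 mg/kg. Wild type mice were C57BL/6 from Charles River Laboratories. The null mice carried the targeted allele of the strain B6.Cg-Mir155tm1.1Rsky/J, a line that came from The Jackson Laboratory. The labels name no cell type to which the deletion is limited. The supplier differs together with the genotype in all groups, and the substrain may, so that their effects and the loss of miR-155 cannot be told apart here. RNA came from whole ground kidney of independent animals, 1 per array.

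A microRNA is a short RNA that guides the Argonaute proteins to messenger RNAs that pair with its seed, bases 2 to 8, which lowers the stability or the translation of those messages. miR-155 is cut from the transcript of its host gene and is best known from activated macrophages, dendritic cells and lymphocytes, where it restrains inhibitors of cytokine signalling such as Socs1 and Inpp5d. In an injured kidney such immune cells meet tubule cells that lose their transport functions, express injury markers and may divide again.

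The molecule that the null mice lack is given below so that its seed can be seen. Both mature strands come from the plus strand of chromosome 16 (RefSeq, build GRCm38.p6), at chr16:84714143-84714165 for the 5p strand of 23 bases and chr16:84714182-84714202 for the 3p strand of 21 bases. Capitals mark the seed, and a full match to the 5p seed in a message reads AGCAUUA.
mmu-miR-155-5p: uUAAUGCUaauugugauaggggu
mmu-miR-155-3p: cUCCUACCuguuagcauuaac

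The arrays carried no probe named for the miR-155 host gene, so that the deletion itself was not checked on them. Levels are given as log2 intensity relative to the 75th percentile of the array, so that 0 stands for that percentile and 1 unit for a factor of 2. Differences are miR-155-/- minus wild type with the standard error of the limma fit, over 4 and 4 arrays unless a sentence says otherwise. A gene is called where its limma p-value, adjusted by the Benjamini-Hochberg method over all 23759 genes and transcripts tested, was under 0.05. The proximal tubule genes that define the tissue, such as Slc22a6 and Slc13a3, were well above background on all 8 arrays. The 75th percentile lay between 1662 and 2200 intensity units on these arrays and 68.0% to 81.6% of probes were well above background. Along the first principal component of the 8 arrays, which held 39.7% of the variance, miR-155-/- replicate 4 lay at -17.14, among the wild type arrays (-39.17 to -3.79), and the other miR-155-/- arrays at 22.84 to 55.63. Where leaving out this array changed the count of called genes in a list, that count is given beside the list. The array was picked out from these same values, and leaving it out raised the count of all calls. Of the 23759 tested, 289 were then called higher and 72 lower, and the list counts without it stand beside these. Leaving out any other array lowered the count of all calls, as given below, and the list counts of those fits are not given.

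At 72 h most called genes were higher in miR-155-/- kidney, among them Flnc, Ccn2, Vim and Ccna2, while the tubule genes Slc22a6, Slc13a3 and Egf were lower. Of the genes and transcripts tested, 171 were called (0.72%), 142 higher (0.598%) and 29 lower (0.122%) in miR-155-/- kidney. The higher ones were also the larger differences, 110 of them at least 2-fold against 3 of the lower ones. In 164 of the 171 the 4 and 4 values did not overlap. The 10 largest and 10 lowest differences named below were taken only from called genes without overlap. Separate groups in those genes are set by that choice. Over all genes tested the values did not overlap in 6.04% with miR-155-/- higher and in 6.79% with it lower, and the median difference was -0.04. With 0.72% of features called, most lists of the sizes used here would hold no call, so that 0 called says little about a list. RNA from whole kidney cannot tell fewer cells of a type from less RNA per cell.

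Single arrays moved the count of calls. It was 47, 64, 81 and 169 without wild type replicates 1, 2, 3 and 4, and 45, 116, 42 and 361 without miR-155-/- replicates 1, 2, 3 and 4. Without miR-155-/- replicate 4, 289 genes were higher and 72 lower, and 166 of the 171 calls were kept. All 171 had the same sign in each of these 8 fits. On 3 slides that held an array of each genotype at 72 h, the sign was kept by 99.4% of the called genes on 1 slide and by all of them on the other 2. The fits and the slides use the arrays on which the genes were called, so that the kept sign is largely set by that choice. None of these 3 slides held miR-155-/- replicate 4.

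Serpinb2, a serine protease inhibitor, differed by 3.82 ± 0.85 (limma adjusted p = 0.0245), with wild type levels of -8.39, -7.15, -6.82 and -6.46 and miR-155-/- levels of -2.40, -3.73, -2.30 and -5.07. Every miR-155-/- animal was above every wild type animal, which the rule that named this gene required. Serpinb2 was a dim gene in wild type, well above background on 3 of 4 arrays there.

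Of the list of TGF-beta, matrix and fibrosis genes, 3 of 26 were called higher, against 0.598% of all genes, and 0 lower. In the list 24 were above 0, the median difference was 0.67, and 4 were called higher without miR-155-/- replicate 4. The called ones include Ccn2 (CTGF, a matrix protein induced by TGF-beta), which rose by 1.55 ± 0.31 (limma adjusted p = 0.0119), and Tgfb1, the cytokine itself, which rose by 0.78 ± 0.18 (limma adjusted p = 0.0384). For Ccn2 the wild type values were 2.38, 2.48, 2.45 and 2.75 and the miR-155-/- values 4.73, 3.76, 4.87 and 2.91, with replicate 4 just above the highest wild type animal. Loxl4, a collagen crosslinking enzyme of the lysyl oxidase family, differed by 1.62 ± 0.32 (limma adjusted p = 0.0105). Its values were -5.21, -4.83, -5.07 and -4.93 in wild type and -3.43, -3.51, -3.16 and -3.46 in miR-155-/- kidney, with no overlap.

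The calls of this group depended on several arrays. Serpinb2 was not called without wild type replicate 1, 2 or 3 or miR-155-/- replicate 1 or 3 (limma adjusted p up to 0.161), and Ccn2 was not without wild type replicate 1 or miR-155-/- replicate 1 or 3 (up to 0.108). Loxl4 lost its call without wild type replicate 1 or miR-155-/- replicate 3 (up to 0.0703), and Tgfb1 without any array but wild type replicate 4 and miR-155-/- replicate 4 (up to 0.289). With normexp background correction Serpinb2, Tgfb1 and Loxl4 kept their sign and were not called (limma adjusted p = 0.0743, 0.266 and 0.354). Tgfb1 was called in 9 of 14 settings other than leaving out an array, and also lost its call with scan day as a block, with the replicate block, with no filter on dim probes and with the 8 arrays at 72 h alone. Ccn2 lost its call with those 8 arrays alone (limma adjusted p = 0.0515). Fibroblast markers, which share collagen genes with scar tissue, were called in 0 of 13, had a median of 0.65 with 12 above 0, and a summed linear level of 6.18 to 9.86 in wild type and 8.78 to 18.2 in miR-155-/- kidney. Their median was 0.08, 0.13 and 1.51 within the 3 slides, so that it was large on 1 of them, and 1 member was called higher without miR-155-/- replicate 4. Col3a1 and Col1a1, the fibrillar collagens, differed by 1.37 ± 0.45 and 1.15 ± 0.44 (limma adjusted p = 0.169 and 0.269). The part of a fibroblast difference in the matrix genes was not tested.

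Markers of tubular injury were all above 0, by a median of 0.93 over 22 genes. Of these, 2 were called higher, against 0.598% of all genes, and 0 lower. S100a6, a calcium-binding protein of injured epithelium, rose by 1.89 ± 0.41 (limma adjusted p = 0.0235), from 2.71, 3.40, 3.26 and 3.50 in wild type to 5.66, 4.73, 5.54 and 4.52. Vim, the intermediate filament vimentin that dedifferentiated tubule cells share with mesenchymal cells, rose by 1.04 ± 0.20 (limma adjusted p = 0.00872), from 0.86, 0.73, 0.74 and 0.91 to 2.24, 1.49, 2.24 and 1.42. Neither gene's groups overlapped, and miR-155-/- replicate 4 was the lowest of its group in both. In 14 of the 22 markers the groups did not overlap, against 6.04% of all genes in that direction.

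The classical urinary markers were not called. Havcr1 (KIM-1) was at 1.59, 2.82, 3.06 and 3.29 in wild type and 4.53, 4.09, 4.31 and 3.69 in miR-155-/- kidney, a difference of 1.47 ± 0.64 (limma adjusted p = 0.369) in groups that did not overlap. Lcn2 (NGAL) differed by 0.96 ± 0.68, Clu (clusterin) by 0.64 ± 0.21 and Spp1 (osteopontin) by 0.49 ± 0.23, with limma adjusted p-values of 0.683, 0.172 and 0.43. Both genotypes had induced them by 72 h, when cisplatin had changed 25.3% of all genes tested in wild type and 35.2% in miR-155-/- kidney against saline (limma adjusted p under 0.05). These 2 shares do not test whether the responses differ. The genotype by cisplatin interaction, the change from saline in miR-155-/- minus that in wild type, does so, and 0.215% of all genes were called in it. Havcr1 rose against saline by 5.75 in wild type and 7.45 in miR-155-/- kidney, and Lcn2 by 5.40 and 6.66. Neither was called in the interaction, so that their responses were not shown to differ. The acute phase and complement list, which covers fibrinogen and complement genes made by liver and injured tubule, had 0 of 19 called and a median of 0.38. Its members Fgb, a fibrinogen chain, and Cp, ceruloplasmin, differed by 1.81 ± 0.61 and 0.89 ± 0.34 (limma adjusted p = 0.186 and 0.28).

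Other structural and epithelial genes were called too. Flnc, filamin C, which links actin filaments, was at -2.30, -1.59, -1.23 and -0.86 in wild type and 2.05, 1.16, 2.15 and 0.15 in miR-155-/- kidney. The groups did not overlap, and the difference of 2.87 ± 0.51 (limma adjusted p = 0.00452) was called in each of the 8 fits that left out 1 array. S100a4, a calcium-binding protein of motile cells, rose by 1.08 ± 0.18 (limma adjusted p = 0.00175) and kept its call in all 8 as well, from a wild type mean of -1.19 ± 0.18 (SD, n = 4) to values of 0.06, -0.36, 0.03 and -0.18 in the miR-155-/- animals, all above the wild type ones. Crct1, a gene of the epidermal differentiation complex, rose by 3.48 ± 0.77 (limma adjusted p = 0.0245), with wild type values of -2.88, -1.98, -1.61 and -1.27 and miR-155-/- values of 1.97, 1.32, 2.50 and 0.39. Its groups were separate too, as the rule that named it required. Without miR-155-/- replicate 1 or 3, Vim, S100a6 and Crct1 were not called (limma adjusted p up to 0.0797, 0.14 and 0.161). S100a6 and Crct1 also lost the call without wild type replicate 1, 2 or 3, and Crct1 without miR-155-/- replicate 2.

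**Figure D1:**
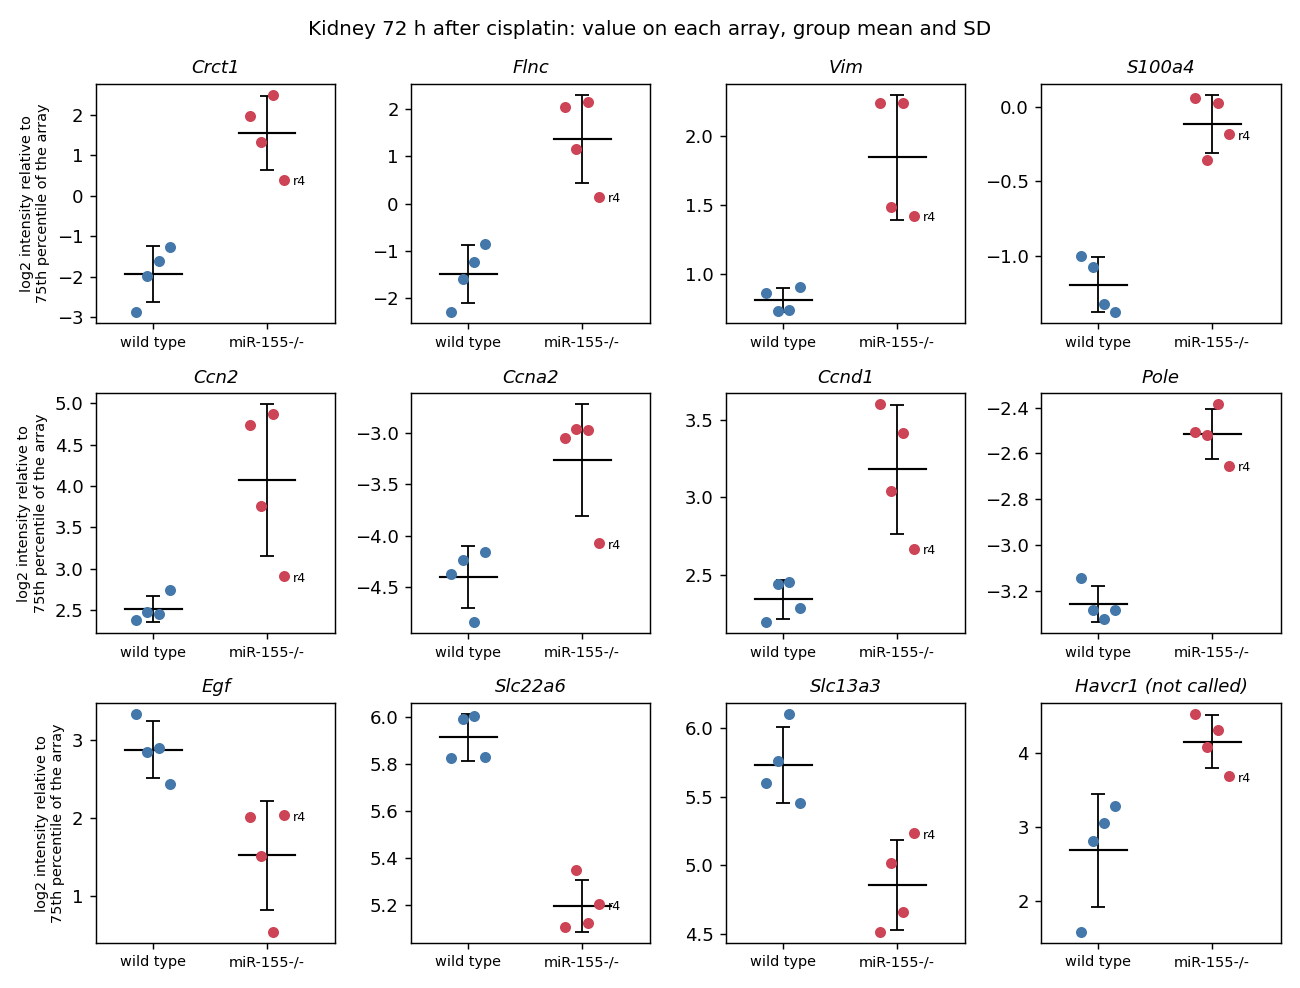
Log2 intensity relative to the 75th percentile of the array (y axis) of 12 genes in the 4 wild type (blue) and 4 miR-155-/- (red) kidneys 72 h after cisplatin. Points are arrays, the long bar is the group mean, the whiskers 1 SD, and r4 marks miR-155-/- replicate 4. Of the miR-155-/- kidneys it lies nearest the wild type ones in every gene shown but S100a4 and Slc22a6. The groups do not overlap in any of the 12 genes, of which Havcr1 was not called.

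Genes of cell division had higher means in miR-155-/- kidney at 72 h, through 3 of the 4 animals. All 18 mitosis genes tested were above 0 with a median of 0.98, and 2 were called higher, against 0.598% of all genes, and 0 lower. With the slide as a fixed block 6 were called higher, with quantile normalization 4 and with normexp background correction 0. Ccna2, the cyclin A2 of S phase and mitotic entry, was at -4.37, -4.23, -4.84 and -4.16 in wild type and -3.05, -2.96, -2.97 and -4.07 in miR-155-/- kidney. The first 3 miR-155-/- animals were close together and replicate 4 lay just above the wild type animals. The difference was 1.14 ± 0.24 (limma adjusted p = 0.0175). Tpx2, a spindle assembly factor, rose by 1.496 ± 0.354 (limma adjusted p = 0.0384), with values of -5.17, -4.82, -4.59 and -4.48 against -3.02, -3.19, -2.73 and -4.14. A dimmer probe of Tpx2 gave 0.53, and with the mean of both probes the gene was not called (1.01, limma adjusted p = 0.121), nor with scan day as a block, the replicate block or no filter on dim probes.

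The mean of the list was at -4.45 in miR-155-/- replicate 4, within the wild type animals, and between -3.28 and -3.20 in the other 3. Without that array the median difference was 1.28 and 13 of the 18 genes were called higher, as against 2 with it. Over all 23759 genes and transcripts tested, 289 were called higher without it, as against 142 with it. Mki67, which encodes the proliferation antigen Ki-67, and Top2a, topoisomerase II alpha, show the same spread. They were named after their values were seen. Mki67 was at -1.67, -1.61 and -1.62 in miR-155-/- replicates 1 to 3, at -3.26 in replicate 4 and at -3.28, -3.27, -3.49 and -2.95 in wild type, and the difference over all arrays was 1.21 ± 0.32 (limma adjusted p = 0.0784). Top2a differed by 1.52 ± 0.38 (limma adjusted p = 0.0519). In both genes replicate 4 overlapped the wild type animals.

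Genes of DNA replication, of the kinetochore and of the spindle checkpoint were called as well. Pole, the catalytic subunit of DNA polymerase epsilon, was at -3.14, -3.28, -3.32 and -3.29 in wild type and -2.51, -2.52, -2.39 and -2.65 in miR-155-/- kidney. Its groups were tight and separate, with replicate 4 included. The rise of 0.74 ± 0.13 (limma adjusted p = 0.00512) was the 1 call among 22 replication genes, against 0.598% of all genes called higher. In the list 20 were above 0, with a median of 0.27. The call of Pole was kept in all 8 fits without 1 array. With the mean of both probes of Pole, of which the other was not well above background on any array at 72 h, it was not (0.45, limma adjusted p = 0.34). Without miR-155-/- replicate 4, 3 replication genes were called higher. Rad51ap1, a DNA repair protein, rose by 1.12 ± 0.22 (limma adjusted p = 0.00947), Cenph, a kinetochore protein, by 1.19 ± 0.25 (0.0198), and Trip13, an ATPase of the spindle checkpoint, by 1.06 ± 0.23 (0.0198). Dtl, which directs a ubiquitin ligase to replication factors, rose by 1.61 ± 0.37 (limma adjusted p = 0.0301) and Lmnb1, lamin B1 of the nuclear envelope, by 0.48 ± 0.11 (0.0332). None of these 5 overlapped between the groups. Ccnd1, the cyclin D1 of G1 phase, was at 2.19, 2.44, 2.45 and 2.28 in wild type and 3.60, 3.04, 3.42 and 2.67 in miR-155-/- kidney, a rise of 0.84 ± 0.18 (limma adjusted p = 0.0198).

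In saline the means of the cell cycle genes lay on the other side, so that the genotype by cisplatin interaction was larger than the difference at 72 h. The mitosis list had a median difference of -0.75 in saline, -0.34 at 24 h and 0.15 at 48 h. At 72 h against saline its median difference was -1.25 in wild type and 0.40 in miR-155-/- kidney. The interaction had a median of 1.78, and 7 of the 18 genes were called in it, against 0.215% of all genes. Ccna2 had an interaction of 2.11 ± 0.34, Rad51ap1 of 2.07 ± 0.31, Cenph of 2.34 ± 0.36 and Pole of 1.21 ± 0.19, each with a limma adjusted p of 0.00293. In saline kidney these genes differed by -0.98, -0.95, -1.15 and -0.46, of which none was called. Lmnb1 differed by -0.57 in saline (limma adjusted p = 0.023), and its sign at 72 h was the opposite. The 26 genes of DNA repair and damage signalling had 0 called at 72 h (1 without miR-155-/- replicate 4) and a median of -0.05. Ercc1, of nucleotide excision repair, differed by 1.09 ± 0.35 (limma adjusted p = 0.162).

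Most of these calls rest on several arrays. Without wild type replicate 1 or miR-155-/- replicate 1 or 3, Ccna2, Tpx2, Cenph, Trip13, Dtl, Lmnb1 and Ccnd1 were not called (limma adjusted p up to 0.118, 0.251, 0.126, 0.132, 0.196, 0.181 and 0.134). Without wild type replicate 2 Tpx2, Cenph, Trip13, Dtl and Ccnd1 were not called, without wild type replicate 3 Ccna2, Tpx2, Trip13, Dtl and Lmnb1, and without miR-155-/- replicate 2 Ccna2, Tpx2 and Dtl. Rad51ap1 was not called without miR-155-/- replicate 1 or 3 (up to 0.0797). The count of interaction calls, 51, was 12, 23 and 17 without wild type replicates 1 to 3, and 13, 20, 12 and 161 without miR-155-/- replicates 1 to 4. With normexp background correction Ccna2, Pole, Ccnd1, Rad51ap1, Cenph, Trip13, Dtl, Tpx2 and Lmnb1 had the same sign and were not called. Lmnb1 was called in 7 of 14 such other settings, and not, for one, with quantile normalization (0.42, limma adjusted p = 0.0858).

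**Figure D2:**
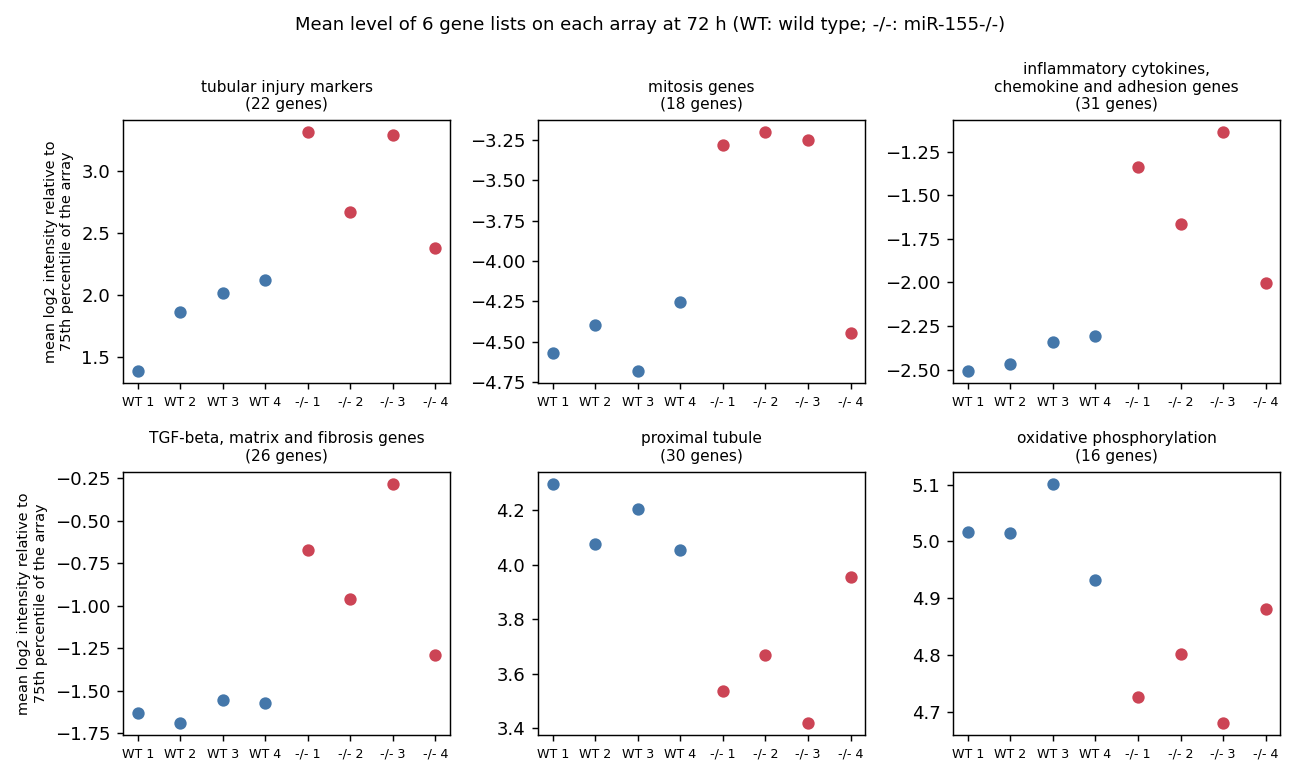
Mean log2 intensity relative to the 75th percentile of the array (y axes, on their own scales) over the tested genes of 6 lists on each of the 8 arrays at 72 h, wild type in blue and miR-155-/- in red. The mitosis list of miR-155-/- replicate 4 lies at -4.45, within the wild type arrays, and the injury, inflammatory, matrix, proximal tubule and oxidative phosphorylation lists have no overlap between the groups.

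Inflammatory genes had higher means in miR-155-/- kidney, but none of the list was called over all arrays. The 31 genes of the list of cytokines, chemokines and adhesion genes were all above 0, with a median of 0.67. In 17 of them the groups did not overlap with miR-155-/- higher, against 6.04% of all genes, and 0 were called higher or lower by limma. Il1b, interleukin 1 beta, was at -4.27, -5.05, -5.24 and -4.68 in wild type and -3.11, -3.92, -2.17 and -4.22 in miR-155-/- kidney. The groups touched but did not overlap, and the difference of 1.45 ± 0.41 had a limma adjusted p of 0.0974. Csf2, the granulocyte-macrophage growth factor GM-CSF, differed by 1.77 ± 0.52 (limma adjusted p = 0.111) and was well above background on 1 wild type and 3 miR-155-/- arrays. Of the 31 genes, 3 were called higher without miR-155-/- replicate 4, 2 with the slide as a fixed block and 1 with quantile normalization. Ncf4, Tlr6 and Tlr1, called immune genes outside this list, are given further on.

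Interferon-stimulated genes, which cells switch on against viruses and in answer to stray nucleic acids, had higher means too, with 26 of 27 above 0, a median of 0.58 and 0 called. Oas1a, which senses double-stranded RNA, was at 0.19, 0.58, 0.23 and 0.59 in wild type and 1.69, 1.30, 1.45 and 1.26 in miR-155-/- kidney, a difference of 1.03 ± 0.29 (limma adjusted p = 0.1). Xaf1, an interferon-induced regulator of apoptosis, differed by 0.95 ± 0.26 (limma adjusted p = 0.085). Their groups were separate in both genes. The list of AP-1 and immediate early genes, transcription factors of the first stress response, had all 19 above 0, a median of 0.47 and 0 called. Fosl1, an AP-1 subunit, differed by 1.79 ± 0.71 (limma adjusted p = 0.3), Batf3 by 0.33 ± 0.17 (0.474), Atf3 by 0.68 ± 0.47 (0.682) and Fos by 0.05 ± 0.50 (0.992). The sign of Fos turned under other scalings, to -0.011 with the array median.

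Ncf4, a subunit of the phagocyte NADPH oxidase, was at -3.10, -3.40, -3.25 and -3.07 in wild type and -2.20, -2.06, -1.48 and -2.65 in miR-155-/- kidney, with no overlap, and rose by 1.11 ± 0.24 (limma adjusted p = 0.0233). It was called without wild type replicate 4 and without miR-155-/- replicate 4, and in no other fit without 1 array (limma adjusted p up to 0.186), nor with normexp background correction (0.0851). Of the macrophage and monocyte markers, 0 of 17 were called, 15 were above 0 with a median of 0.64, and their summed linear level was 11.9 to 16.7 in wild type and 15.5 to 20.3 in miR-155-/- kidney. Lyz1, a lysozyme, and Fcgr1, an Fc receptor, differed by 1.05 ± 0.29 and 0.94 ± 0.29 (limma adjusted p = 0.0878 and 0.137).

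Lists of markers of other immune cells had no call either, except 1 neutrophil marker with quantile normalization. Neutrophil markers had 0 of 10 called, 6 above 0, a median of 0.53 and summed levels of 44.4 to 49.8 in wild type and 40.5 to 51.3 in miR-155-/- kidney. S100a8, a calprotectin subunit, differed by 2.04 ± 0.69 at 72 h (limma adjusted p = 0.186) and by -2.89 in saline (0.134), with an interaction of 4.94 ± 0.97 (0.0255). Mmp9, a gelatinase of neutrophil granules, differed by 1.79 ± 0.51 (limma adjusted p = 0.0979). Dendritic cell markers had 0 of 9 called and a median of 0.76, with summed levels of 68.7 to 82.3 and 70.6 to 90.2. Their members Itgax (CD11c) and H2-Aa, an MHC class II chain, differed by 1.39 ± 0.51 and 0.76 ± 0.35 (limma adjusted p = 0.237 and 0.418). T and NK cell markers (0 of 13 called, median -0.08) and B and plasma cell markers (0 of 8, median -0.11) lay near the median of all genes. How far macrophage or other immune cell RNA takes part in the inflammatory differences was not tested.

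Genes of the mature proximal tubule had lower means in miR-155-/- kidney. All 30 proximal tubule genes were below 0, with a median of -0.55. In 13 of them the groups did not overlap, against 6.79% of all genes in that direction, and 2 were called lower (0.122% of all genes) and 0 higher. The count of lower calls was 4 without miR-155-/- replicate 4, 1 with the slide as a fixed block and 1 with normexp background correction. Slc22a6, the basolateral organic anion transporter OAT1, was at 5.83, 5.99, 6.00 and 5.83 in wild type and 5.11, 5.35, 5.13 and 5.20 in miR-155-/- kidney. The groups lay far apart for their spread, and replicate 4 was not the nearest to wild type. The difference was -0.72 ± 0.13 (limma adjusted p = 0.00663), a factor of 0.609, and was called in all 8 fits without 1 array. Slc13a3, the sodium-dependent dicarboxylate transporter NaDC3, fell by 0.87 ± 0.21 (limma adjusted p = 0.043), from 5.60, 5.76, 6.10 and 5.45 to 4.52, 5.02, 4.66 and 5.24.

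Tmigd1, an adhesion protein of kidney epithelium, was at 4.33, 4.35, 4.42 and 4.46 in wild type and 3.73, 3.86, 3.68 and 3.65 in miR-155-/- kidney, a difference of -0.66 ± 0.12 (limma adjusted p = 0.00691) that was kept in all 8 fits without 1 array. It differed at 48 h too, by -0.61 (limma adjusted p = 0.0385). Hsd3b3, a hydroxysteroid dehydrogenase, fell by 1.03 ± 0.25 (limma adjusted p = 0.0428) and Gnmt, a methyltransferase of glycine, by 0.97 ± 0.23 (0.034). In both the wild type animals were the higher ones without overlap, which the rule that named these genes required. Egf, the epidermal growth factor made by the thick ascending limb and distal tubule, had the lowest difference of all named genes called, -1.35 ± 0.28 (limma adjusted p = 0.0175). Its values were 3.33, 2.85, 2.90 and 2.43 in wild type and 2.01, 1.52, 0.54 and 2.03 in miR-155-/- kidney. It was the 1 call among 25 genes of distal nephron and collecting duct, against 0.122% of all genes called lower. Of the 25, 20 were below 0, with a median of -0.20.

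Wild type kidney had lost part of its Egf and Slc22a6 by 72 h too. Against saline, Egf fell by 2.57 in wild type and by 4.12 in miR-155-/- kidney, Slc22a6 by 0.54 and by 1.19. Slc13a3 was 0.02 above its saline level in wild type (limma adjusted p = 0.955) and fell by 1.01 in miR-155-/- kidney. The interactions of these genes were not called (limma adjusted p = 0.103, 0.173 and 0.171), so that the response itself was not shown to differ. Without wild type replicate 1, 2 or 3 or miR-155-/- replicate 3, Egf was not called (limma adjusted p up to 0.134). Without these or miR-155-/- replicate 1 or 2, Slc13a3, Hsd3b3 and Gnmt were not called either (up to 0.238, 0.249 and 0.226). With normexp background correction Tmigd1 differed by -0.78 (limma adjusted p = 0.0628) and Slc13a3 by -0.98 (0.0884). With the slide as a block Slc13a3 differed by -0.83 (limma adjusted p = 0.0992) and Hsd3b3 by -0.92 (0.0557). Slc13a3 was called in 8 and Hsd3b3 in 7 of 14 such other settings. Both also lost the call with scan day as a block, the replicate block, no filter on dim probes and no mean-variance trend, and Hsd3b3 with normexp and quantile normalization (limma adjusted p up to 0.0992 and 0.0823). Gnmt lost it with the array median as scale (-1.03, limma adjusted p = 0.0551) and with the replicate block (0.0534).

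Of the remaining genes with the lowest calls, Eaf2, a cofactor of transcription elongation, differed by -0.97 ± 0.20 (limma adjusted p = 0.0176). A dimmer probe of Eaf2 gave -0.28, and the gene kept its call with the mean of both probes. Foxred2, an oxidoreductase of the endoplasmic reticulum, differed by -0.83 ± 0.16 (limma adjusted p = 0.0087). Vstm2a, a secreted immunoglobulin-domain protein, differed by -1.27 ± 0.29 (limma adjusted p = 0.0332). In all 3 the groups did not overlap, which the rule that named them required. Eaf2 was not called without wild type replicate 1 or 2 or miR-155-/- replicate 1 or 3 (up to 0.0983), Foxred2 without wild type replicate 1 or miR-155-/- replicate 3 (up to 0.0732), and Vstm2a without any array but wild type replicate 4 and miR-155-/- replicate 4 (up to 0.243). Foxred2 was not called with normexp background correction (0.614), and Vstm2a was nearer 0 there (-0.19, limma adjusted p = 0.846) and not called with the slide or scan day as a fixed block either.

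Mitochondrial genes, on which tubule transport depends, were lower by small amounts and without calls. All 16 oxidative phosphorylation genes were below 0 with a median of -0.22, and 19 of 23 fatty acid oxidation genes with a median of -0.19. Sdha and Ndufa9, subunits of complexes II and I, differed by -0.31 ± 0.09 and -0.33 ± 0.10 (limma adjusted p = 0.111 and 0.135). Acaa2 and Acadm, enzymes of beta-oxidation, differed by -0.39 ± 0.15 and -0.36 ± 0.16 (0.303 and 0.372). Glomerular and vascular genes lay near 0, with medians of 0.04 over 10 podocyte markers and 0.01 over 12 endothelial markers and 0 called in both.

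**Figure D3:**
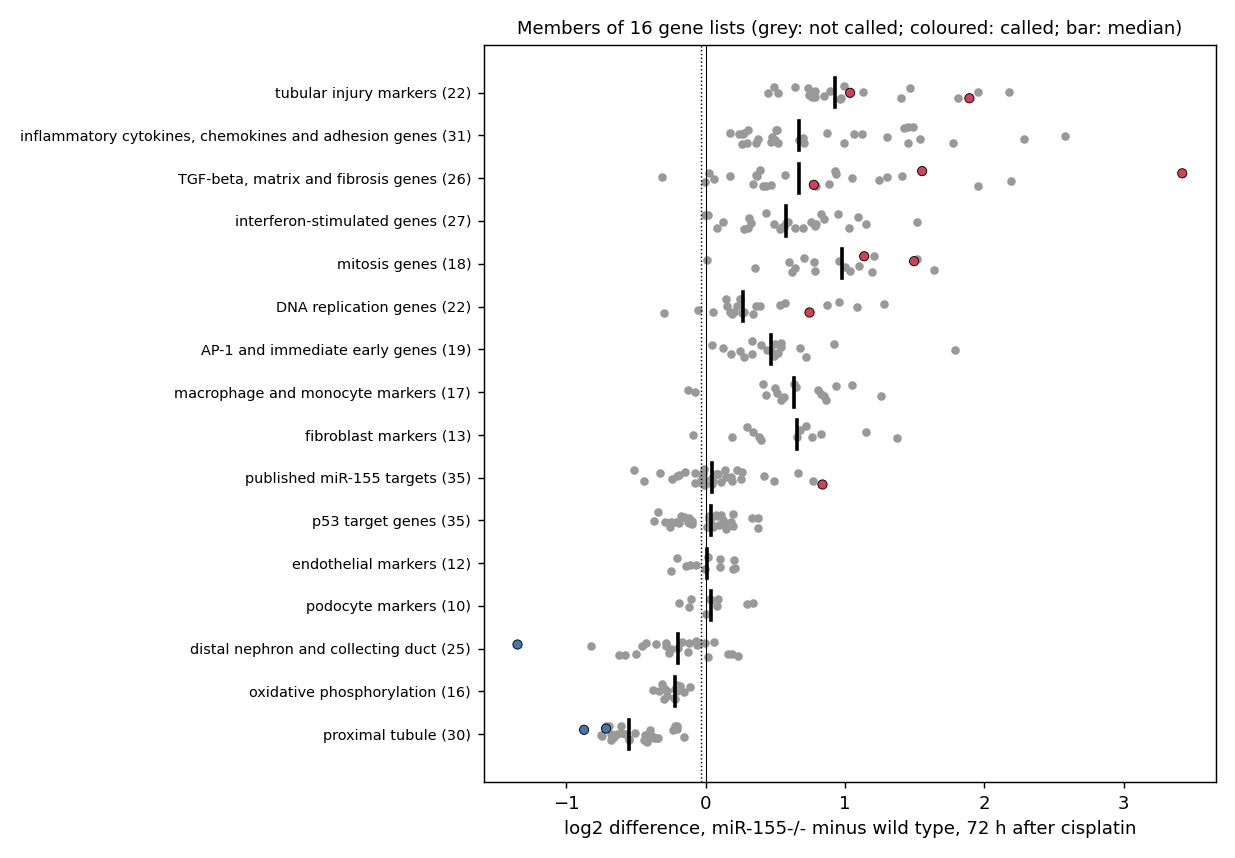
Log2 difference between miR-155-/- and wild type kidney at 72 h (x axis) of every tested member of 16 gene lists, with the number of genes after each name. Grey points were not called, red points were called higher and blue points lower, the bar is the median of the list and the dotted line the median of all genes, -0.04; the injury list has a median of 0.93 and the proximal tubule list of -0.55.

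The p53 targets, a main damage response to cisplatin, held no call. Of 35 genes 0 were called, against 0.72% of all genes, so that the count alone says little. In the list 21 were above and 14 below 0, the median was 0.04 and the range -0.37 to 0.38. Cdkn1a, the cell cycle inhibitor p21, was at 2.49, 2.96, 2.89 and 3.103 in wild type and 3.12, 3.096, 3.14 and 2.66 in miR-155-/- kidney. The groups overlapped (0.14 ± 0.29, limma adjusted p = 0.939), and Cdkn1a rose against saline by 4.65 in wild type and 5.11 in miR-155-/- kidney. Ccng1, cyclin G1, and Fas, a death receptor, differed by -0.25 ± 0.14 and -0.34 ± 0.20 (limma adjusted p = 0.534 and 0.597). Cell death genes had 0 of 27 called and a median of 0.11. Their members Ripk3, a kinase of necroptosis, and Birc3, an inhibitor of apoptosis, differed by 1.23 ± 0.37 and 0.60 ± 0.17 (limma adjusted p = 0.132 and 0.109). Cisplatin transport and metal handling had 0 of 16 called and a median of -0.04. Slc22a2, the cation transporter OCT2 that takes up cisplatin, differed by -0.43 ± 0.16 (limma adjusted p = 0.231), and Ccs, a copper chaperone, by -0.38 ± 0.14 (0.219).

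Messages reported as targets of miR-155 lay on both sides of 0. Of 35 tested, 18 were above and 17 below 0 with a median of 0.05. Among them 1 was called higher (Ccnd1), against 0.598% of all genes, and 0 lower. Without miR-155-/- replicate 4, 2 were called higher, against 289 of all 23759 genes and transcripts. Socs1, an inhibitor of cytokine signalling, was at -2.35, -2.44, -2.26 and -2.38 in wild type and -1.54, -1.95, -1.75 and -2.24 in miR-155-/- kidney. Its groups did not overlap, and its difference of 0.49 ± 0.32 was not called (limma adjusted p = 0.638). Inpp5d, the lipid phosphatase SHIP1, was at -1.74, -2.24, -1.91 and -1.64 against -2.38, -1.57, -1.02 and -1.80, with overlap (0.19 ± 0.22, limma adjusted p = 0.864). Ccnd1 had an interaction of 1.15 ± 0.25 (limma adjusted p = 0.0453). It fell against saline by 1.09 in wild type and differed by 0.06 in miR-155-/- kidney. Of 13 genes of the microRNA pathway 0 were called, with a median of 0.04, and the Argonautes Ago2 and Ago3 differed by 0.28 ± 0.15 and 0.34 ± 0.22 (limma adjusted p = 0.521 and 0.649).

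Genes beside Mir155 on its chromosome, which a targeted line can carry from its donor strain, had no call over all arrays, against 0.72% of all genes. At that share a list of this size would mostly hold none. Without miR-155-/- replicate 4, 1 was called higher and 2 lower, and with the slide as a fixed block 1 was called lower. Of 31 tested among 20 neighbours on each side, 11 were above and 20 below 0, and the median was -0.11. The 3 of smallest p were Usp25, a deubiquitinase, at -0.45 ± 0.12, Mrpl39, a mitochondrial ribosome protein, at -0.45 ± 0.13, and Samsn1, an adaptor of B cells, at 1.10 ± 0.35 (limma adjusted p = 0.0736, 0.116 and 0.159).

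A smaller set of genes differed between the genotypes at 72 h and also at other times, in animals that the 72 h groups do not include. Of the 171 calls, 27 were called in the same direction at 1 or more of the other times, 15 of them in saline kidney, and 11 at all 4. The 15 are 8.77% of the calls at 72 h and 55.6% of the 27 calls in saline (0.114% of genes). Called genes numbered 19 at 24 h (0.08%) and 24 at 48 h (0.101%). The 118 higher genes that were called at no other time had median differences of -0.08 in saline, 0.27 at 24 h, 0.63 at 48 h and 1.49 at 72 h. The 24 higher genes with a further call had 1.64, 1.79, 2.19 and 2.45. The 29 lower genes had 0.02, -0.07, -0.38 and -0.66, and all 29 were below 0 at 48 h. Since these genes were chosen at 72 h, the larger size at 72 h is in part set by that choice. The higher genes were split by their calls at the other times, so that the larger medians of the 24 at those times are in part set by the split.

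**Figure D4:**
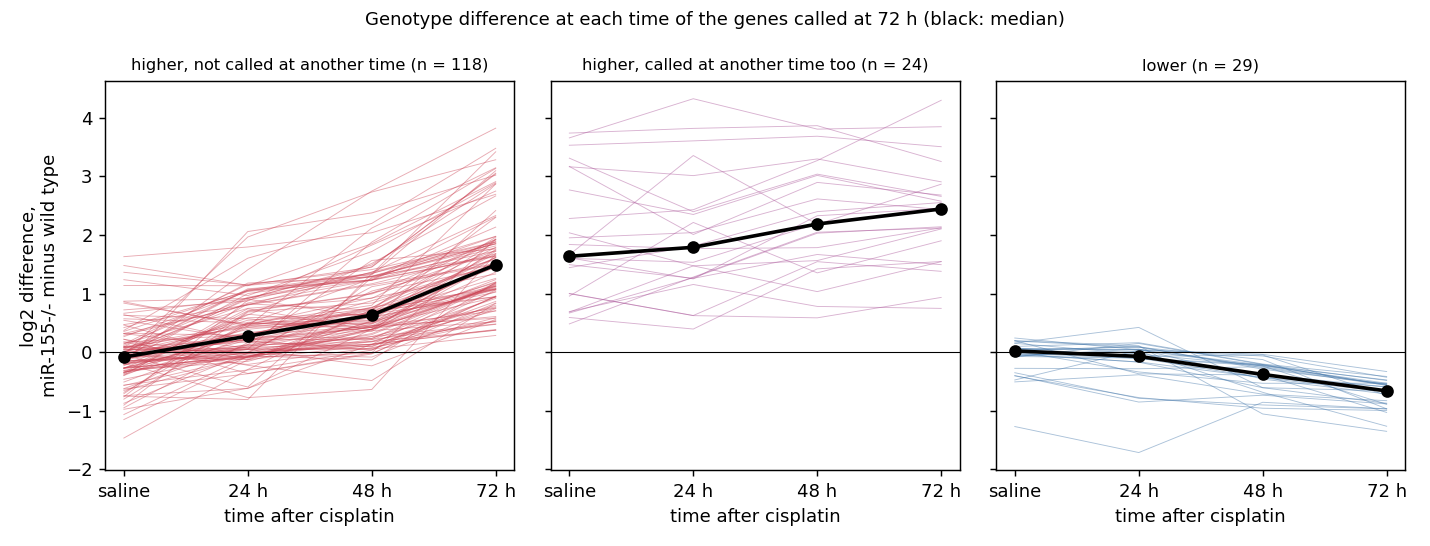
Log2 difference between miR-155-/- and wild type kidney (y axis) in saline and 24, 48 and 72 h after cisplatin for the genes called at 72 h, 1 line per gene and the median in black. The 118 higher genes with no other call have medians from -0.08 in saline to 1.49, and the 29 lower genes reach -0.66. The 24 with a further call, split off by their calls at the other times, have a median of 1.64 in saline.

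The clearest of the recurring genes separated all 16 miR-155-/- from all 16 wild type arrays of the study. There were 9 higher and 1 lower features that did so. Pi4k2b, a phosphatidylinositol kinase, was at -1.88, -1.64, -1.73 and -1.79 in wild type and 0.64, 0.45, 1.33 and 0.29 in miR-155-/- kidney at 72 h, a difference of 2.44 ± 0.22 (limma adjusted p = 1.49e-07). In saline, at 24 and at 48 h it differed by 1.95, 2.04 and 2.62. Tmem254a, a membrane protein, differed by 1.49 ± 0.15 and Plac9a, a small secreted protein, by 2.12 ± 0.23 at 72 h (limma adjusted p = 1.72e-06 and 3.62e-06), and by 1.49 and 1.84 in saline. These 2 genes lie next to each other among the tested genes of chromosome 14. Fam205a2 had the largest difference of all, 4.30 ± 0.32 (limma adjusted p = 3.68e-09), with values of -6.43, -5.61, -6.69 and -5.77 against -1.84, -1.69, -1.65 and -2.11. Its other probes gave 3.74, 1.18 and -0.28, so that the probes of this gene disagree. Bglap2, an osteocalcin gene, was the lower one (-0.97 ± 0.24, limma adjusted p = 0.0453) and was called at 72 h in 1 of the 8 fits without 1 array, that without miR-155-/- replicate 4 (limma adjusted p up to 0.238 in the others). It was called in 9 of 14 other settings, and not with normexp background correction, no filter on dim probes, the slide or scan day as a fixed block, or no mean-variance trend (up to 0.731).

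Of the named genes tested on chromosome 5, 15 of 1004 were called at 72 h (1.49%), against 0.72% of all genes and transcripts, and 10 of these 15 at another time. Chromosome 3 had 14 of 814 (1.72%), of which 1 recurred. The calls on chromosome 5 include genes of the Speer family, named for spermatogenesis-associated glutamate-rich proteins, and predicted genes. Near-identical copies of these can share a probe, so that their identity is uncertain and their calls may not be independent. Speer4e differed by 3.85 ± 0.66 (limma adjusted p = 0.00277), Gm9758 by 3.51 ± 0.54 (0.000699) and Gm17019 by 2.58 ± 0.41 (0.00151). On other chromosomes, Speer5-ps1 differed by 2.91 ± 0.40 (limma adjusted p = 0.000232), Gm3893 by 2.45 ± 0.36 (0.000458) and Gm5622 by 2.89 ± 0.57 (0.0105). All 6 had separate groups. Speer4e was well above background on 1 of 4 wild type arrays. Speer3 was not well above background on any wild type array, so that it was at least 3.39-fold higher in miR-155-/- kidney (limma adjusted p = 0.0198). This bound is the ratio, from means of log2 values, of the miR-155-/- level to a floor on the wild type arrays, which is the faintest signal well above background on the array or the signal of Speer3 itself where that was higher. Speer4a (2.66 ± 0.57, limma adjusted p = 0.0193) and Gm10220 (2.68 ± 0.59, 0.0245) were named after their values were seen, and a second probe of Gm10220 gave -0.26. Speer3 and Gm5622 were not called without wild type replicate 1 or miR-155-/- replicate 1 or 3 (up to 0.107 and 0.0788), nor Speer3 without wild type replicate 2. Speer4a was not without wild type replicate 1 or 3 or miR-155-/- replicate 1 (up to 0.0935), and Gm10220 was called only without wild type replicate 4 and without miR-155-/- replicate 4 (up to 0.1 in the others).

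On chromosome 5, the receptor genes Tlr6 and Tlr1, whose products pair with TLR2 to sense bacterial lipopeptides, are neighbours. Tlr6 was at -6.62, -6.75, -6.42 and -6.24 in wild type and -3.19, -3.19, -4.89 and -3.28 in miR-155-/- kidney, a difference of 2.87 ± 0.48 (limma adjusted p = 0.0025) with no overlap. It differed by 3.36 at 24 h (limma adjusted p = 0.000394). Tlr1, named after its values were seen, differed by 1.54 ± 0.30 at 72 h (limma adjusted p = 0.00947) and 1.47 at 24 h (0.0427), and lost its call at 72 h without miR-155-/- replicate 1 (0.0507). Lgi2, a secreted protein of the LGI family whose gene also lies there, rose by 1.90 ± 0.33 at 72 h (limma adjusted p = 0.00273) and differed by 2.21 at 24 h (0.000523). It responded to cisplatin in both genotypes, with rises of 4.75 and 5.69 against saline. With normexp background correction, which changes dim genes most, Tlr6, Tlr1, Speer4e, Speer3, Speer4a, Gm10220 and Gm3893 were not called.

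Of 8 genes reported to differ between the substrains C57BL/6J and C57BL/6N, 1 was called, against 0.72% of all genes. In the list 4 were above and 4 below 0, with a median of -0.20. Entpd4, a nucleoside diphosphatase, was at 3.80, 4.01, 3.86 and 3.64 in wild type and 4.51, 4.58, 4.44 and 4.78 in miR-155-/- kidney, a difference of 0.75 ± 0.14 (limma adjusted p = 0.00911), and it was also higher in saline (0.69), at 24 h (1.16) and at 48 h (0.78). The groups did not overlap, and the call was kept in all 8 fits without 1 array, but not with normexp background correction (0.66, limma adjusted p = 0.097) or the array median. Which of the recurring differences belong to the substrain and which to the loss of miR-155 cannot be told apart.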

How the data were processed

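Total RNA of 32 kidneys was hybridised to 1-colour (Cy3) Agilent mouse arrays, 1 animal per array, in 8 groups of 4. The intensity used here is the deposited processed signal of Feature Extraction 10.7.3.1 (protocol GE1_107_Sep09, per the file headers), linear and already background-subtracted. The authors' deposited value table proved to be that intensity times 1 factor per array, not centred by gene. The arrays were annotated on mm9.

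From the files, log2 of the processed signal minus the 75th percentile of the array over non-control spots was computed. Outlier flags removed 59 to 976 spots per array, and 0 spots were saturated. Values of repeated spots were averaged, and the brightest probe stood for its gene. Symbols came through the accession of the probe from a RefSeq table (GRCm38.p6), used for names and gene order only, for 27234 of 39429 probes (69.1%). A feature was tested where some group had it well above background on its 4 arrays and each group had 3 or more values, which left 23759. Group means over 32 arrays were fitted with limma 3.58.1 in R 4.3.3 (lmFit, contrasts.fit, eBayes with a mean-variance trend, 24 residual degrees of freedom), 2-sided, with Benjamini-Hochberg adjustment within each comparison. The code was tested on simulated data. The interaction is the change from saline to 72 h in miR-155-/- minus that in wild type. No set test was made: lists are described by counts and medians. A summed level is the sum over a marker list of 2 to the power of its log2 levels. The number of arrays limits the precision.

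Members and lists were chosen with earlier results of these data known. Genes were named by rule: 7 injury and stress genes (Havcr1, Lcn2, Clu, Spp1, Cdkn1a, Fos and Atf3), the 10 largest and 10 lowest called non-overlapping differences, up to 10 called also at another time, up to 10 called also in the interaction, up to 4 called members of a list or else its 2 of smallest p, and 3 neighbours of Mir155. Lists given by counts alone name no gene. Results for some genes are not reported here. Alternatives were another background (normexp with an offset of 50, on the median signal, since the files hold no mean signal), other scalings, probe filters and blocks, and each array at 72 h left out in turn.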

Additional observations from a re-analysis of the deposited data

Results flagged for a closer look

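In 10 of 276 groups of 4 values (the named genes and the list means), 1 array lay far from the other 3 for the range of its group. Chance gives such a gap in about 1 in 20 groups. In 5 of the 10 that array was miR-155-/- replicate 4 at 72 h, the lowest of its group at 0.48 for Atf3, -4.07 for Ccna2, 2.66 for Cdkn1a, -3.26 for Mki67 and -4.45 for the mean of the mitosis genes. In miR-155-/- replicate 3, Mmp9 (-5.42) and the mean of the B and plasma cell markers (-3.36) were the highest and Tlr6 (-4.89) the lowest. In wild type the highest were Cat in replicate 3 (2.96) and the mean of the circadian clock genes in replicate 1 (-0.77).

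For 17 named genes the genotype difference at 72 h differed from that in saline by the interaction test of limma over 4 groups of 4 arrays. The naming rule itself takes genes called in the interaction, so that their number is in part set by it. Ccna2 (2.11), Cenph (2.34), Rad51ap1 (2.07), Pole (1.21) and Lmnb1 (1.05, all log2) had an adjusted p of 0.00293. Dtl had 3.08 (0.00553), Trip13 1.72 (0.0205), Top2a 2.70 (0.0255), Mki67 2.24 (0.0286), Tpx2 2.37 (0.0371) and Ccnd1 1.15 (0.0453). The others were S100a4 at 1.59 (0.00293), Loxl4 at 2.69 (0.0053), Ncf4 at 1.73 (0.0255), S100a8 at 4.94 (0.0255), Vim at 1.31 (0.0425) and Cat at -0.80 (0.0425). Mki67, Top2a and S100a8 were not called at 72 h itself.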

How the results depend on the processing

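At 72 h 171 genes were called. All 171 kept their sign under every alternative run except normexp background correction, where 168 did, and the filter for all arrays, which left 140 of them to test. These runs share the arrays on which the genes were called. The count was 63 with normexp, 268 with the slide as a fixed block, 413 with the slide as a random block, 854 with the 8 arrays at 72 h alone and 3400 with array weights. Quantile normalization (227), the array median (156), the authors' value table (172), no probe filter (146), a filter for all arrays (138), scan day as a block (136), no mean-variance trend (147) and the mean of all probes (168) stayed within 1.5 times. The share of calls that were higher, 142 of 171, became 62.4% with the 8 arrays alone, 46.7% with array weights and 72.2% with the slide as a random block. The median difference of all genes was -0.04 in the report, 0.17 with normexp, and between -0.093 (array median) and -0.006 (without miR-155-/- replicate 4) under the other alternatives. Leaving out 1 array gave 42 to 361 calls at 72 h.

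In saline the count of 27 became 9 with normexp and 41 with quantile normalization, at 24 h 19 became 5 with normexp, and at 48 h 24 became 71 with the slide as a fixed block. In the interaction, 42 genes were called higher and 9 lower. These became 3 and 1 with normexp, 98 and 11 with quantile normalization, 26 and 6 with no probe filter, and 136 and 19 with the slide as a fixed block, and ranged from 9 to 146 and from 3 to 15 with 1 array left out. Fos turned to -0.011 with the array median, -0.057 with the slide and -0.064 with scan day as a block, and ranged from -0.071 to 0.15 with 1 array left out. Inpp5d ranged from -0.033 without miR-155-/- replicate 3 to 0.42 without miR-155-/- replicate 1. The causes were not tested.

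Replicate numbers are shared by the groups. Same-numbered arrays did not deviate together (r = -0.000, -0.192, -0.097 and -0.456). The other pairs of arrays ranged from -0.336 to 0.581, so that pairing by number was neither shown nor excluded. With the replicate block 134 genes were called at 72 h, and 25 higher and 5 lower in the interaction. Dim probes limit what can be measured: on miR-155-/- replicate 4 at 72 h, 68.0% of probes were well above background.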

Other observations

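Called genes outside the naming rule, chosen after their values were seen, add further groups. Hk2, a hexokinase of glycolysis that healthy tubule hardly uses, was at -3.32, -3.34, -3.01 and -3.19 in wild type and -0.44, -1.50, -0.49 and -1.23 in miR-155-/- kidney, a difference of 2.30 ± 0.47 (limma adjusted p = 0.0145). Adam8, a membrane protease, rose by 2.42 ± 0.50 (limma adjusted p = 0.0175) and Slpi, a secreted inhibitor of leukocyte proteases, by 2.33 ± 0.50 (0.0206). Both rose against saline in wild type as well, by 2.14 and 3.69, and in miR-155-/- kidney by 4.96 and 6.79, and neither was called in the interaction. Ccl17, a chemokine of dendritic cells that draws T cells, rose by 1.73 ± 0.34 (limma adjusted p = 0.0105), from -4.02, -3.45, -3.95 and -3.41 to -1.97, -1.95, -1.51 and -2.49. Inhba, the activin A subunit of the TGF-beta family, rose by 1.92 ± 0.47 (limma adjusted p = 0.0453), and Cd52, a surface glycoprotein of leukocytes, by 1.13 ± 0.27 (0.0409). Cat, the peroxisomal enzyme catalase, fell by 0.56 ± 0.12 (limma adjusted p = 0.0239), from 2.74, 2.72, 2.96 and 2.71 to 2.10, 2.29, 2.16 and 2.34. A second probe of Cat gave -0.32, and the gene kept its call with the mean of both probes. The groups of these 7 genes did not overlap.

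Hk2 and Adam8 were not called without wild type replicate 1 or 2 or miR-155-/- replicate 1 or 3 (limma adjusted p up to 0.0922 and 0.108), nor was Slpi without these or miR-155-/- replicate 2 (up to 0.127). Ccl17 lost its call without wild type replicate 1 or miR-155-/- replicate 3 (up to 0.0832), and Cat without wild type replicate 1, 2 or 3 or miR-155-/- replicate 1 or 3 (up to 0.127). Inhba and Cd52 were called only without miR-155-/- replicate 4 (up to 0.28 and 0.285 in the others). Of 14 other settings, Inhba was called in 8, and not with normexp background correction, no filter on dim probes, the slide or scan day as a fixed block, the replicate block or no mean-variance trend (up to 0.232). Cd52 was called in 11, and not with no filter on dim probes, scan day as a block or no mean-variance trend (up to 0.0577). Ccl17 and Cat were not called with normexp background correction (0.111 and 0.104), nor Cat with the array median.

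Lists not yet described had 0 called over all arrays. Without miR-155-/- replicate 4, 1 antigen presentation gene was called higher and 1 male-biased gene lower. Their medians were 0.27 for antigen presentation, -0.06 for Nrf2 and glutathione genes, 0.15 for the unfolded protein response, 0.02 for cholesterol synthesis, -0.16 for fatty acid synthesis, -0.16 for the circadian clock and -0.29 for male-biased kidney genes. Marker lists of other tissues had medians of -0.19 (adipocyte), 0.12 (adrenal cortex), 0.24 (urothelium), 0.47 (muscle), -0.15 (pancreas and liver) and 0.04 (renin cells). Red blood cell markers had a median of 1.08 at 72 h and -0.19 in saline, and their summed linear level of 0.709 to 1.33 in wild type and 0.850 to 2.17 in miR-155-/- kidney overlapped.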
